A study of Mus musculus with 2 samples.

Results

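The caveolins and cavins are the proteins that build caveolae, the small flask-shaped pits of the plasma membrane. Their transcripts were followed through the cells of the mouse aorta in 1 Kif13b-/- library and 1 wild-type (WT) library. The 6 genes were taken by name and not by any measured value: the caveolins Cav1 and Cav2, the cavins Cavin1, Cavin2 and Cavin3, and Ehd2, which encodes an ATPase at the caveola neck. They are 6 of the 33696 genes of the deposited matrices, and all 6 had UMIs in both libraries (a UMI, unique molecular identifier, stands for 1 captured transcript).

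Both libraries came from dissociated aorta and were made with droplet-based 10x 3' chemistry. The title of the first reads Kif13b-/-, while its genotype field says that Kif13b was knocked down. The kind of allele, and the strain, age, sex, diet and number of the animals, are not given in the sources used here. The series title places the question in atherosclerosis and in the uptake of dying cells by macrophages through the receptor MERTK. With 1 library per genotype there is no replicate and no test between genotypes, and every 95% interval below covers counting error only. A ratio of 1.5 or more between the libraries is called higher or lower by size alone.

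Caveolin-1 forms the coat of the caveola by inserting hairpins into the inner leaflet of the membrane, and caveolin-2 joins it as a partner. Cavin-1 wraps around the caveolin coat and is needed for caveolae in most tissues, whereas cavin-2 and cavin-3 are added in a tissue-dependent manner and EHD2 holds the finished pit at the surface. Endothelial cells, adipocytes and smooth muscle cells are the classical caveola-rich cells. KIF13B is a kinesin, a motor that walks along microtubules, and caveolin-1 is a known binding partner of it.

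The analysed cells were 6887 Kif13b-/- and 16686 WT barcodes, with median depths of 5760 and 2385 UMIs and totals of 59853601 and 81975755 UMIs. In the order Kif13b-/- and then WT, they included 693 and 1720 smooth muscle-like, 537 and 2342 endothelial-like, 48 and 467 adipocyte-like and 709 and 1521 fibroblast-like barcodes. A further 671 and 1343 barcodes formed a stromal cluster that is marked by Crabp2, Cst6 and Grem1 and carries 8 of 8 genes known from modulated smooth muscle cells of plaques, which summed to 53001 Kif13b-/- and 47755 WT CPM (counts per 1000000 UMIs of the class) there, against 4026 and 3149 CPM in smooth muscle-like cells. Its fibroblast markers, 10 of 10 detected, summed to 8647 Kif13b-/- and 7237 WT CPM, against 11058 and 9791 CPM in fibroblast-like cells. Its smooth muscle markers summed to 3128 and 3750 CPM, against 31459 and 33370 CPM in smooth muscle-like cells. The sum of the 8 genes is compared with smooth muscle-like cells alone, so it does not set this class apart from fibroblast-like or chondrocyte-like cells. This stromal class stands for modulated cells below, and its origin was not tested. Kif13b was the targeted gene and was not absent: it was lower in the Kif13b-/- library in each of these 5 classes, at 45.7 Kif13b-/- and 58.6 WT CPM in smooth muscle-like cells and with the lowest log2 ratio, -1.04, in adipocyte-like cells. A 3' tag does not show whether a transcript with a deleted exon is still made. The libraries shared 52 barcode sequences, 0.670% of the Kif13b-/- and 0.246% of the WT barcodes deposited.

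Cav2 and Cav1 lie next to each other on chromosome 6 (mm10), both on the plus strand, Cav2 at chr6:17281185-17289115 and Cav1 at chr6:17306335-17341452. The 17219 bases between them hold 0 other annotated genes in GENCODE M21. The antisense gene Gm15581 overlaps both and had 153 Kif13b-/- and 354 WT UMIs over all barcodes. The sources do not say whether the counting used the strand. Cavin2 lies on chromosome 1 at chr1:51289126-51302960 on the plus strand and overlaps the antisense gene 9330175M20Rik. Cavin1 lies on chromosome 11, and Cavin3 and Ehd2 both lie on chromosome 7, at 105480083 and 15946958, on the minus strand.

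The 250 bases before the annotated start are shown for the neighbours Cav1 and Cav2, and for Cavin2, the member with the most endothelial distribution. They are RefSeq sequences of build GRCm38.p6, each on the plus strand: chr6:17306085-17306334 for Cav1, chr6:17280935-17281184 for Cav2 and chr1:51288876-51289125 for Cavin2. Capitals mark letters that match the GC box, CCAAT box, AP-1 site or TATA box on either strand.
Cav1 promoter: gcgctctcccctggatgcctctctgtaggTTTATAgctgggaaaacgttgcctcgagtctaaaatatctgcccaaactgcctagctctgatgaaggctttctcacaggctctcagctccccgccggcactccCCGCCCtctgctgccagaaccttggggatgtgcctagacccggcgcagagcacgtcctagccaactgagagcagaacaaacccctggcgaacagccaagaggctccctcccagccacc
Cav2 promoter: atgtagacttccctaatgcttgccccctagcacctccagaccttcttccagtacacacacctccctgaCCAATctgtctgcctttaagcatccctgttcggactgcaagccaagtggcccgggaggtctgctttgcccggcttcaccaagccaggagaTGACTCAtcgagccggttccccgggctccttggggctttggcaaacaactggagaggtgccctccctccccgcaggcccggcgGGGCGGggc
Cavin2 promoter: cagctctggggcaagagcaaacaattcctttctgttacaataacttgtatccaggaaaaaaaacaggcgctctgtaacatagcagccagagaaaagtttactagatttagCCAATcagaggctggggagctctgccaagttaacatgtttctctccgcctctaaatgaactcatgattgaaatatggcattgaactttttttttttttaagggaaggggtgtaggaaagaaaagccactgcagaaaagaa

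The windows of the 2 caveolins were GC-rich, with 59.6% G or C before Cav1 and 62% before Cav2, against 40.4% before Cavin2 and a mean of 53.2% over 32851 promoter windows of the same length. Both strands were searched, and no marked motif overlapped another. The GC box (GGGCGG, 32.7% of all windows) matched before Cav1 and Cav2, and also before Cavin1 and Ehd2. The CCAAT box (CCAAT, 33.8%) matched before Cav2 and Cavin2, and also before Cavin1 and Ehd2, and the AP-1 site (TGANTCA, 6.75%) matched before Cav2. In the Cav1 window the TATA box letters (TATAAA, 12.4%) read on the opposite strand, 221 to 216 bases before the start. The CArG box (1.47% of windows), which serum response factor binds in smooth muscle genes, matched in none of the 5 members' windows in the RefSeq table. A match describes letters in these windows and no more.

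Cav1 was the 1 member of the 6 that was lower in the Kif13b-/- library, beyond counting error, in each of the 5 classes. Endothelial-like cells held the highest level, 633 CPM in the Kif13b-/- library (95% interval 607 to 660.5) and 707 CPM in the WT library (688 to 728). Smooth muscle-like cells followed at 313 Kif13b-/- CPM (301 to 325) and 432 WT CPM (421 to 445). In both classes the intervals of the libraries did not overlap, and the Kif13b-/- library was the lower one.

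Adipocyte-like cells held 245 Kif13b-/- CPM (203 to 293) and 337 WT CPM (310 to 365) of Cav1. In the Crabp2 Cst6 Grem1 stromal cells it was at 145 Kif13b-/- CPM (139 to 152) and 221 WT CPM (213 to 228). Fibroblast-like cells had the lowest level of the 5, 96.0 Kif13b-/- CPM (87.1 to 106) and 167 WT CPM (156 to 179.9). The intervals of the 2 libraries did not overlap in any of the 5 classes, and the Kif13b-/- library was the lower one each time.

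**Figure D1:**
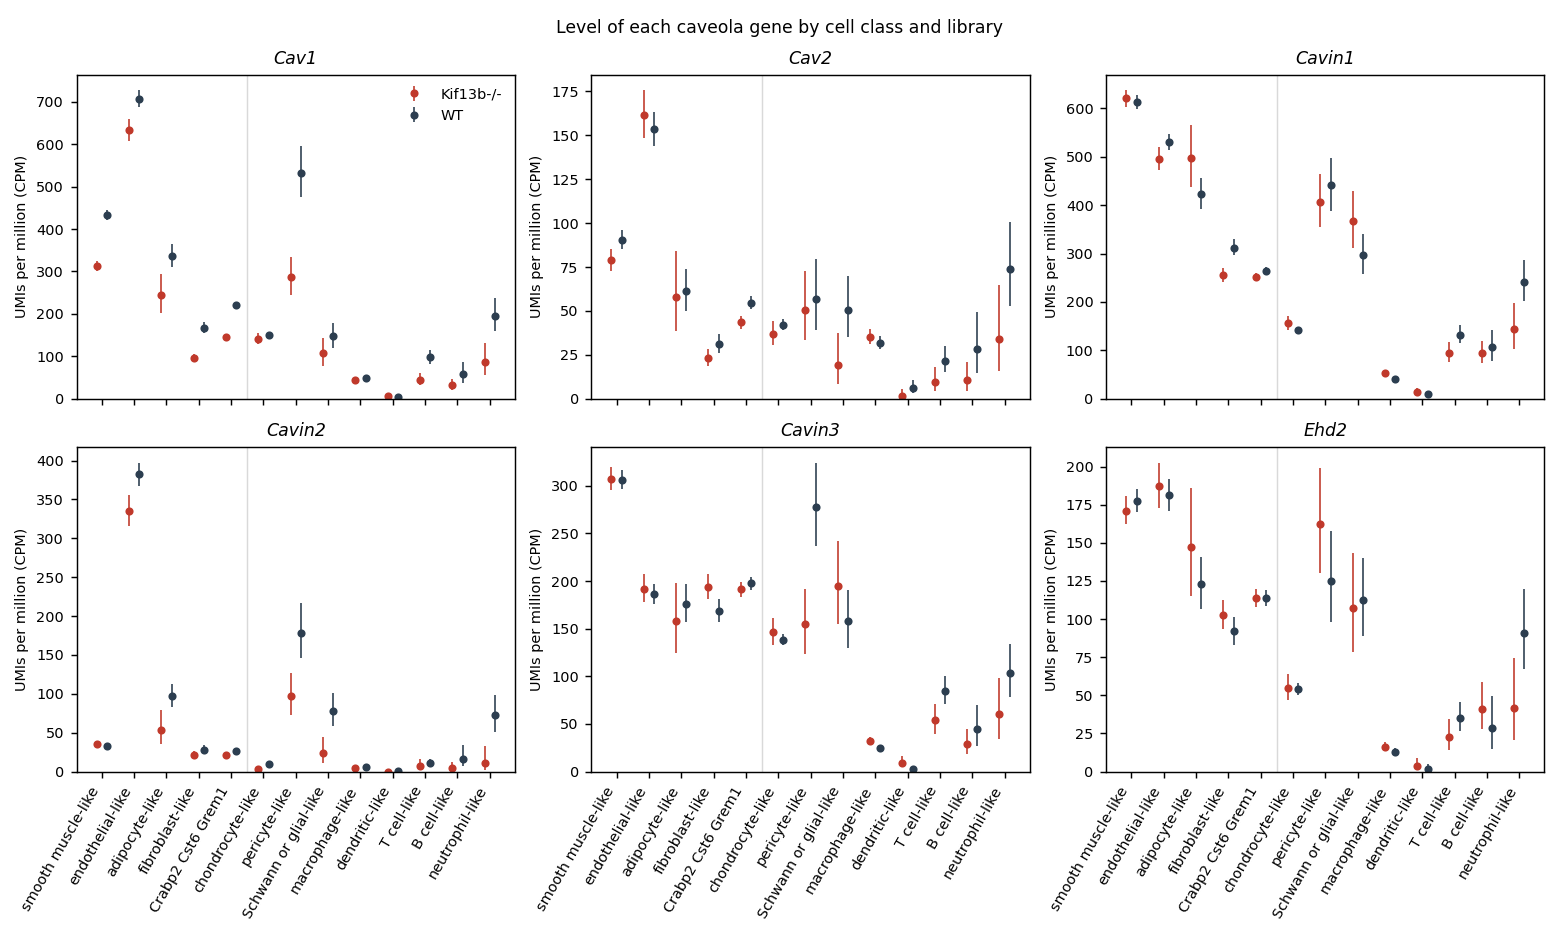
Level of each of the 6 genes as CPM (counts per 1000000 UMIs of the class, linear axis from 0) in 13 cell classes, Kif13b-/- in red to the left of WT in dark blue. Points are sums over 1 library, bars are exact Poisson 95% intervals, and the grey line parts the 5 described classes from the others. Cav1 and Cavin2 peak in endothelial-like cells and Cavin1 and Cavin3 in smooth muscle-like cells.

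As log2 ratios of Kif13b-/- over WT, Cav1 was at -0.16 (-0.23 to -0.09) in endothelial-like, -0.45 (-0.76 to -0.17) in adipocyte-like, -0.47 (-0.54 to -0.40) in smooth muscle-like, -0.60 (-0.68 to -0.52) in stromal and -0.80 (-0.98 to -0.63) in fibroblast-like cells. The last 2 passed the ratio of 1.5, which is 0.58 on the log2 scale. The stromal value lay just past it. It was no longer past it with at most 10% mitochondrial UMIs (-0.58), with a total without mitochondrial UMIs (-0.58), with each cell weighing the same (-0.56), after thinning to 1000 UMIs (-0.48) or at Leiden resolution 2 (-0.36). The fibroblast-like value was no longer past it at Leiden resolution 2 (-0.51), with the members among the genes used for clustering (-0.41) or with classes by marker score (-0.39). Pericyte-like cells, with 68 Kif13b-/- and 80 WT barcodes, held 286 Kif13b-/- and 532 WT CPM, a log2 ratio of -0.89 (-1.18 to -0.61). The markers of other cells were unequal in that class. The smooth muscle markers summed to 7410.2 Kif13b-/- and 12890.3 WT CPM and the fibroblast markers to 2258 and 566 CPM, with 10 of 10 of each list detected in both libraries, and the endothelial markers to 302 and 194 CPM, with 7 and 6 of 10 detected. The pericyte markers themselves summed to 10874 Kif13b-/- and 6693 WT CPM (6 of 6 detected in both). Their part in the pericyte-like values was not tested. Chondrocyte-like cells did not differ beyond counting error, at 141 Kif13b-/- and 149 WT CPM (log2 ratio -0.08, -0.23 to 0.07). The difference of the log2 ratio between classes was not tested.

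Cav2 encodes the partner of caveolin-1 that is held in the Golgi when caveolin-1 is missing. It had the same order of classes at the top: 162 Kif13b-/- CPM (148 to 176) and 153 WT CPM (144 to 163) in endothelial-like cells, then 79.0 Kif13b-/- CPM (73.0 to 85.4) and 90.6 WT CPM (85.2 to 96.2) in smooth muscle-like cells. Adipocyte-like cells held 58.1 and 61.2 CPM, stromal cells 43.5 and 54.7 CPM and fibroblast-like cells 23.1 and 30.9 CPM (Kif13b-/- and then WT in each). Smooth muscle-like and adipocyte-like cells, and adipocyte-like and stromal cells, had overlapping intervals in the Kif13b-/- library, and fibroblast-like cells lay below both stromal intervals.

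The Cav2 ratio was nearer to equal than that of Cav1. In endothelial-like cells it was 0.08 (-0.08 to 0.23), so that the data allow a level between slightly lower and somewhat higher in the Kif13b-/- library. In smooth muscle-like cells it was -0.20 (-0.34 to -0.05), in stromal cells -0.33 (-0.49 to -0.17) and in fibroblast-like cells -0.42 (-0.80 to -0.04). Adipocyte-like cells had only 28 Kif13b-/- UMIs of Cav2, and the interval there ran from -0.73 to 0.54.

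Cavin1, the coat protein shared by all caveolae, was a smooth muscle-led gene here. Its level was 621 Kif13b-/- CPM (604 to 638) and 614 WT CPM (600 to 628) in smooth muscle-like cells. Endothelial-like cells held 495 Kif13b-/- CPM (472 to 520) and 530 WT CPM (513 to 548), and adipocyte-like cells 498 Kif13b-/- CPM (437 to 566) and 423 WT CPM (393 to 455). In smooth muscle-like cells, where Cav1 was lower in the Kif13b-/- library, the log2 ratio of Cavin1 was 0.02 (-0.04 to 0.07).

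Stromal cells had 251 Kif13b-/- and 264 WT CPM of Cavin1 (log2 ratio -0.07, -0.14 to -0.01) and fibroblast-like cells 255 and 312 CPM (-0.29, -0.41 to -0.18). In endothelial-like cells the ratio was -0.10 (-0.18 to -0.01), and in adipocyte-like cells 0.24 (0.02 to 0.45). Cavin1 was thus on both sides of equal, and its ratio passed 1.5 in none of the 5 classes.

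Cavin2, which shapes the curved membrane and is needed for endothelial caveolae in some mouse tissues, had the narrowest distribution. Endothelial-like cells held 335 Kif13b-/- CPM (316 to 355) and 382 WT CPM (368 to 397). Next came pericyte-like cells with 97.2 Kif13b-/- and 178 WT CPM and adipocyte-like cells with 54.0 and 97.1 CPM. Smooth muscle-like cells were at 34.8 Kif13b-/- and 32.4 WT CPM, stromal cells at 21.4 and 26.7 CPM and fibroblast-like cells at 21.3 and 28.2 CPM.

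The log2 ratio of Cavin2 was -0.19 (-0.29 to -0.09) in endothelial-like and -0.82 (-1.50 to -0.24) in adipocyte-like cells, the adipocyte value from 26 Kif13b-/- and 165 WT UMIs. In adipocyte-like cells the endothelial markers summed to 87.2 Kif13b-/- CPM, with 5 of 10 detected and Cdh5, Tie1, Emcn, Egfl7 and Ptprb at 0, and to 186 WT CPM, with 10 of 10 detected. The chondrocyte markers summed to 251 Kif13b-/- and 1247 WT CPM there, with 7 and 9 of 9 detected. Their part in the adipocyte-like value was not tested. In smooth muscle-like cells it was 0.10 (-0.13 to 0.33). The smooth muscle-like class joins a pair of clusters with unlike Cavin2 levels. Cluster 4 held 44.3 Kif13b-/- and 54.1 WT CPM and a log2 ratio of -0.28 (-0.52 to -0.05), whereas cluster 10 held 10.2 and 6.41 CPM. Cluster 4 made up 69.7% of the class in the Kif13b-/- library and 52.2% in the WT library, and the part of that mix in the class level was not tested.

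The same split gave unlike levels for the other members. Cav1 was at 310 Kif13b-/- and 456 WT CPM in cluster 4 and at 321 and 404 CPM in cluster 10, with log2 ratios of -0.56 (-0.64 to -0.47) and -0.33 (-0.46 to -0.21). Cavin3 was at 275 Kif13b-/- and 251 WT CPM in cluster 4 and at 390 and 373 CPM in cluster 10. The summed level of 10 smooth muscle markers was 28599 Kif13b-/- and 28153 WT CPM in cluster 4 and 38805 and 39647 CPM in cluster 10. The pericyte markers summed to 4700 Kif13b-/- and 3680 WT CPM in cluster 4 and to 5416 and 4868 CPM in cluster 10. The endothelial markers summed to 150 and 178 CPM and to 91.2 and 113 CPM in the same order. Cav1 was lower in the Kif13b-/- library in both clusters, and the part of these markers in it was not tested.

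Cavin3, which binds caveolin-1 and cavin-1 and links caveolae to intracellular traffic, was at 308 Kif13b-/- CPM (296 to 320) and 306 WT CPM (297 to 317) in smooth muscle-like cells. The other 4 classes lay between 158 and 194 Kif13b-/- CPM and between 169 and 198 WT CPM. Its log2 ratio was 0.01 in smooth muscle-like, 0.05 in endothelial-like, -0.05 in stromal and -0.15 in adipocyte-like cells, each with an interval that held equal levels. In fibroblast-like cells it was 0.20 (0.06 to 0.35), with 194 Kif13b-/- and 169 WT CPM, opposite in sign to Cav1 in the same cells.

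Ehd2, whose ATPase ring limits the movement of caveolae, followed endothelial-like (187 Kif13b-/- and 181 WT CPM), smooth muscle-like (171 and 177 CPM), adipocyte-like (147 and 123 CPM), stromal (114 and 114 CPM) and fibroblast-like cells (103 and 91.9 CPM). The top 2 classes could not be told apart by counting error in either library. Its log2 ratio had an interval that held equal levels in each of the 5 classes, from -0.05 (-0.15 to 0.05) in smooth muscle-like to 0.27 (-0.15 to 0.66) in adipocyte-like cells. In stromal cells it was 0.00 with an interval from -0.10 to 0.10, the closest to equal of all values here.

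**Figure D2:**
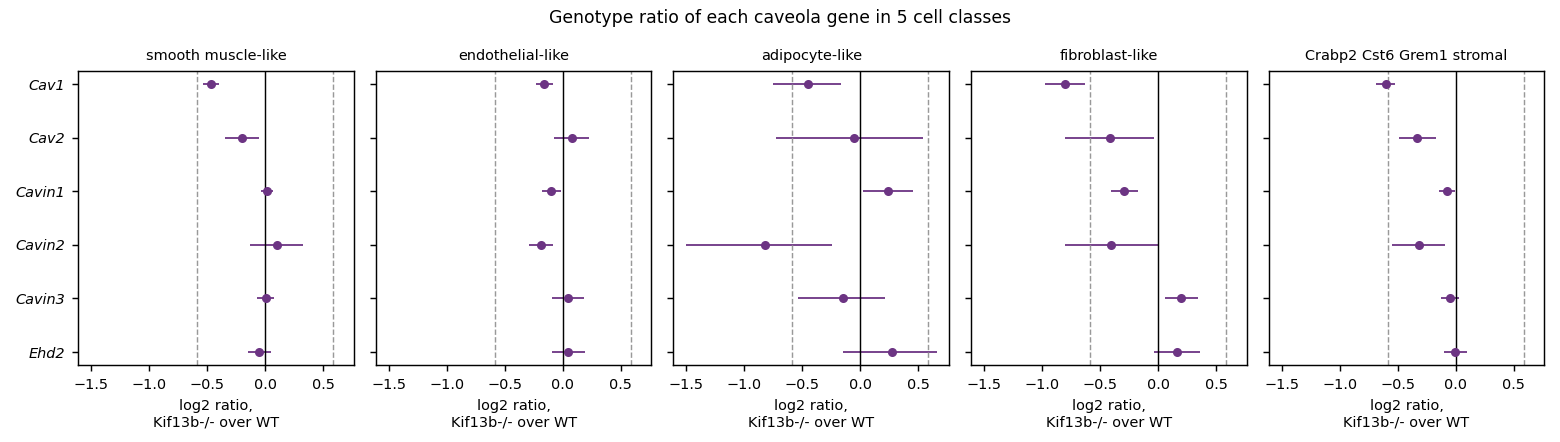
Log2 ratio of Kif13b-/- over WT (x axis) for the 6 genes (rows) in 5 cell classes (panels). Points are ratios of the summed levels, bars are exact 95% counting intervals, the solid line marks equal levels and the dashed lines mark a ratio of 1.5 either way. Cav1 lies left of 0 in each panel, and in smooth muscle-like and stromal cells Cavin1, Cavin3 and Ehd2 lie near 0.

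By size, 0 of the 6 members were lower by a ratio of 1.5 in smooth muscle-like cells, where 4.55% of 13434 genes were, and 0 were lower in endothelial-like cells, where 8.72% of 13398 genes were. 1 member was lower in adipocyte-like cells (Cavin2; 18.3% of all genes), 1 in fibroblast-like cells (Cav1; 7.81%) and 1 in stromal cells (Cav1; 5.12%). No member was higher by that ratio, against 6.15% of all genes in smooth muscle-like, 6.25% in endothelial-like, 10.3% in adipocyte-like, 7.12% in fibroblast-like and 5.02% in stromal cells. Outside these classes, 3 members were lower in pericyte-like cells (Cav1, Cavin2 and Cavin3; 15% of all genes lower and 13.8% higher). Cavin2 alone was lower in chondrocyte-like cells, from 8 Kif13b-/- and 147 WT UMIs (10.2% lower, 9.02% higher), and in macrophage-like cells, from 32 and 53 UMIs (6.11% lower, 8% higher). No share of all genes was taken in Schwann or glial-like cells or the other leukocytes, so no count is given there. Cav1 log2 ratios were -0.44 (-0.99 to 0.07) in Schwann or glial-like, -1.10 (-1.64 to -0.62) in T cell-like and -0.89 (-1.76 to -0.03) in B cell-like cells. They were -1.14 (-1.89 to -0.51) in neutrophil-like and 0.48 (-1.13 to 2.10) in dendritic-like cells. Over all barcodes 0 members passed the ratio either way (8.19% lower, 4.5% higher), with Cav1 at 175 Kif13b-/- and 257 WT CPM and Cavin1 at 297 and 296 CPM. The median log2 ratio of the 6 was -0.02 in smooth muscle-like, -0.03 in endothelial-like, -0.10 in adipocyte-like, -0.35 in fibroblast-like and -0.20 in stromal cells, against medians over all genes of 0.00, -0.02, -0.07, -0.04 and 0.00 in the same order of classes.

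Endothelial-like cells made up 4 clusters, and the members were unequal between them. Cluster 20, with capillary markers such as Gpihbp1 and Car4, had the most Cav1, 988 Kif13b-/- and 1179 WT CPM. Arterial cluster 3, with Gja5 and Sema3g, had 628 Kif13b-/- and 802 WT CPM. Clusters 12 and 18 had 445 and 512 CPM and 215 and 392.1 CPM (Kif13b-/- and then WT). The log2 ratio of Cav1 was below 0 in all 4, and its interval reached equal levels in cluster 12. In the order of clusters 20, 3, 12 and 18 it was -0.25 (-0.38 to -0.13), -0.35 (-0.47 to -0.24), -0.20 (-0.41 to 0.00) and -0.86 (-1.17 to -0.57).

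All 4 ratios were further from equal than that of the pooled class. The capillary cluster contributed 28.1% of the UMIs of the class in the Kif13b-/- library and 13.5% in the WT library. That cluster has the highest Cav1 level, and it also held adipocyte markers at 15220.3 Kif13b-/- and 16193 WT CPM, of which Fabp4 is known from capillary endothelium too. Cluster 18 carried chondrocyte markers that summed to 8113 Kif13b-/- and 6424 WT CPM (105 and 337 CPM in cluster 20) and fibroblast markers that summed to 3780 and 5256 CPM. Both sums were above that of its endothelial markers, 2719 Kif13b-/- and 2547 WT CPM. Their part in its lower caveola levels was not tested.

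Cavin2 was at 493 Kif13b-/- and 602 WT CPM in capillary cluster 20 and at 327 and 331 CPM in arterial cluster 3, where the log2 ratio was -0.02 (-0.18 to 0.15). In cluster 12 it was at 308 Kif13b-/- and 474 WT CPM (-0.62, -0.87 to -0.38), past the ratio of 1.5. In that cluster the lymphatic endothelial markers summed to 169 Kif13b-/- and 712 WT CPM, with 5 of 6 and 6 of 6 detected and Lyve1 at 0 in the Kif13b-/- library. Their part in the Cavin2 value was not tested.

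Cavin1 led in the arterial cluster, at 615 Kif13b-/- and 602 WT CPM, and not in the capillary one, at 443 and 555 CPM. The order of the clusters was thus not that of Cav1 in either library. Ehd2 ran from 246 Kif13b-/- and 279 WT CPM in capillary cluster 20 to 83.9 and 124 CPM in cluster 18, in the same order of clusters as Cav1. Cavin3 in cluster 12 was the one member value here that was higher in the Kif13b-/- library beyond counting error, 247 against 170 WT CPM (0.54, 0.23 to 0.83).

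**Figure D3:**
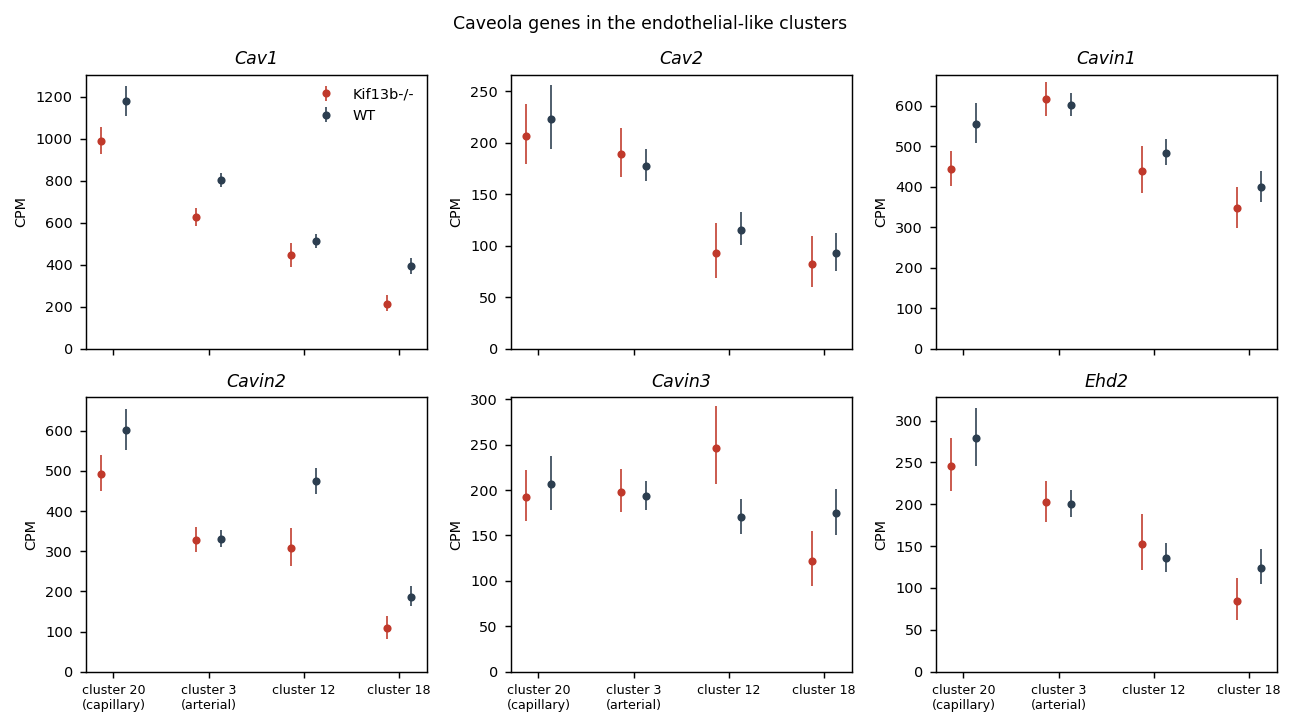
CPM of the 6 genes (linear axes from 0) in the 4 endothelial-like clusters, ordered by Cav1 level, Kif13b-/- in red to the left of WT in dark blue. Points are sums over 1 library and bars exact Poisson 95% intervals. Cav1 and Ehd2 decline from capillary cluster 20 to cluster 18, while Cavin1 is highest in the arterial one.

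Depth differed between the libraries, and some levels differed between shallow and deep barcodes. The part of RNA from other cells in this was not tested. In fibroblast-like cells the smooth muscle gene Acta2 was at 2954 Kif13b-/- and 2280.5 WT CPM in barcodes of 1000 to 2000 UMIs, and at 433 and 482 CPM in barcodes of 10000 UMIs or more. Cavin1 went the same way in these cells, 431 and 393 CPM in the shallow and 196 and 241 CPM in the deep barcodes. Cav1 was at 169 Kif13b-/- and 250.4 WT CPM in the shallow and 69.8 and 115 CPM in the deep ones. Between 5000 and 10000 UMIs the order of the libraries was the other way, with 116 Kif13b-/- and 100.3 WT CPM of Cav1 in fibroblast-like cells. The smooth muscle markers summed to 2839 Kif13b-/- and 3665 WT CPM in fibroblast-like and 3128 and 3750 CPM in stromal cells, with 10 of 10 detected in each, and the endothelial markers to 201 and 247 CPM and 281 and 333 CPM. The pericyte markers summed to 874 Kif13b-/- and 767 WT CPM in fibroblast-like and 756 and 1149 CPM in stromal cells, with 6 of 6 detected in each. In both classes the smooth muscle and endothelial sums were thus lower in the Kif13b-/- library, as was the pericyte sum in stromal cells. Fibroblast-like cluster 15 made up 35.0% of Kif13b-/- and 22.6% of WT class barcodes. Its endothelial markers summed to 182 Kif13b-/- and 493 WT CPM, against 208 and 200 CPM in fibroblast-like cluster 2. Its smooth muscle markers summed to 5709 and 6885 CPM, against 1777 and 3040 CPM in cluster 2. The part of these markers and of the cluster mix in the Cav1 values was not tested.

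Restricted to barcodes of 5000 UMIs or more, Cav1 was at 314 Kif13b-/- and 439 WT CPM in smooth muscle-like cells (log2 ratio -0.48, -0.56 to -0.41) and at 144 and 221 CPM in stromal cells (-0.62, -0.70 to -0.53). Both are close to the values over all barcodes. In endothelial-like cells the ratio was -0.32 (-0.41 to -0.23), with 685 Kif13b-/- and 854 WT CPM, and in adipocyte-like cells -0.68 (-1.01 to -0.37), with 255 and 409 CPM. In fibroblast-like cells it was -0.41 (-0.67 to -0.15), with 81.9 and 109 CPM, and no longer past the ratio of 1.5. At this depth 0 members were past the ratio in smooth muscle-like cells (4.06% of all genes lower, 6.11% higher), 0 in endothelial-like (8.73% and 7.09%) and 0 in fibroblast-like cells (8.84% and 9.32%), and Cav1 was the 1 lower member in stromal cells (4.78% and 5.37%). Cavin1 and Ehd2 had no interval free of equal levels in the smooth muscle-like, endothelial-like, adipocyte-like and stromal barcodes of this depth. In fibroblast-like barcodes Cavin1 was at -0.30 (-0.46 to -0.13) and Ehd2 at 0.26 (-0.01 to 0.54). Cavin2 was at -0.34 (-0.46 to -0.22) in endothelial-like, -1.31 (-2.01 to -0.70) in adipocyte-like and -0.33 (-0.57 to -0.11) in stromal barcodes. Its interval held equal levels in smooth muscle-like and fibroblast-like barcodes.

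**Figure D4:**
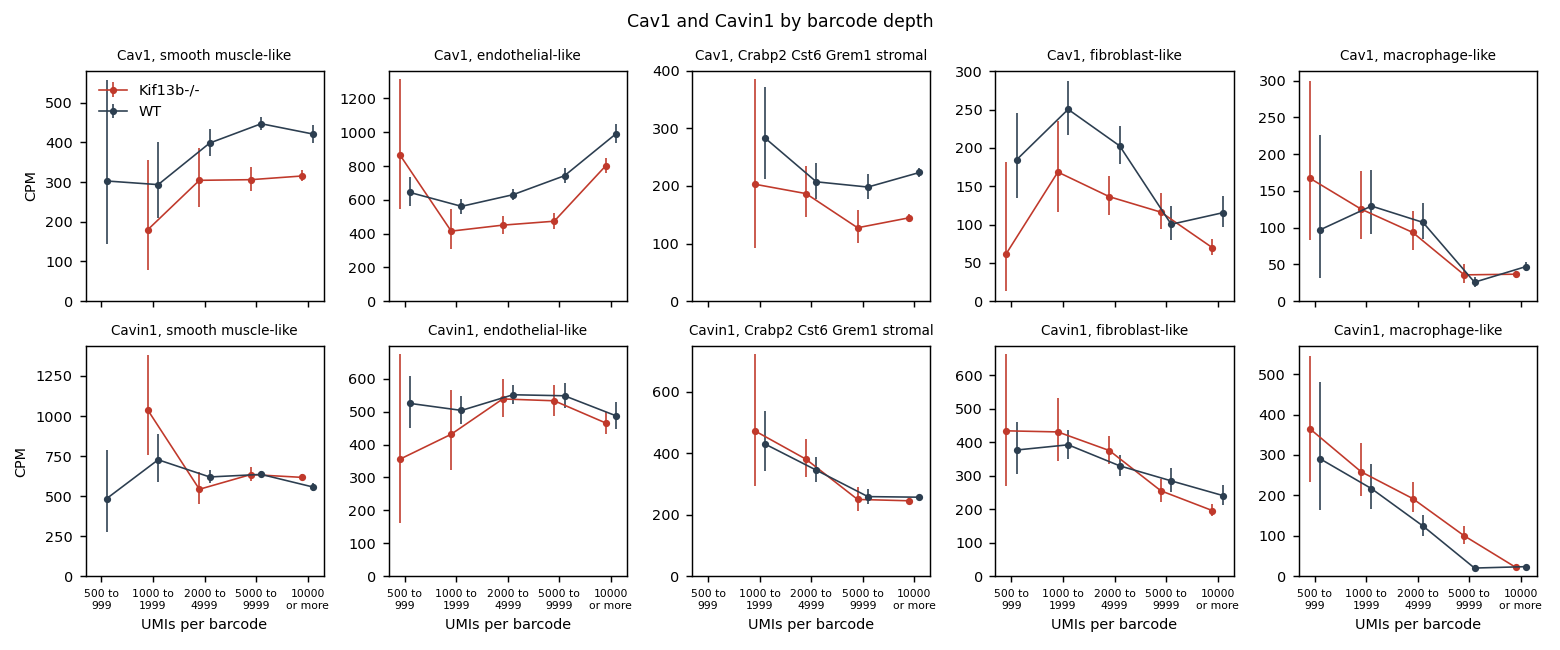
CPM of Cav1 (upper row) and Cavin1 (lower row) on linear axes from 0, by the number of UMIs per barcode, in 5 classes, Kif13b-/- in red and WT in dark blue, with bars for exact Poisson 95% intervals. Bins with fewer than 20 barcodes are left out. In smooth muscle-like and stromal cells the Kif13b-/- points of Cav1 lie below the WT points in every bin that both have, while in fibroblast-like and macrophage-like cells both genes decline with depth.

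RNA of broken cells can enter droplets of other cells, and the members had UMIs in leukocytes too. Cav1 was at 31.9 Kif13b-/- and 59.2 WT CPM in B cell-like cells and at 87.1 and 196 CPM in neutrophil-like cells. Of the pair of neutrophil-like clusters, cluster 26 held 23 Kif13b-/- and 103 WT UMIs of Cav1, and cluster 28 held 0 and 3. In cluster 26 the smooth muscle markers summed to 1927 Kif13b-/- and 9332 WT CPM and the endothelial markers to 351 and 1244 CPM. In cluster 28 the same sums were 354 and 402 CPM and 44.3 and 68.7 CPM. The part of cluster 26 in the subtraction below was not tested. Dendritic-like cells had 6.15 Kif13b-/- and 4.40 WT CPM. Subtracting the pooled level of B cell-like and neutrophil-like cells, 46.2 Kif13b-/- and 136 WT CPM, turned the sign of the Cav1 ratio in fibroblast-like (0.66), stromal (0.23) and endothelial-like cells (0.04), while the value was -0.15 in smooth muscle-like and -0.01 in adipocyte-like cells. Subtracting the dendritic-like level instead gave -0.86 in fibroblast-like and -0.64 in stromal cells. Which leukocytes stand best for the free RNA of these classes was not tested.

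The share of barcodes with at least 1 UMI of Cav1 was 80.8% in Kif13b-/- and 79.4% in WT smooth muscle-like cells, although the median depth was 11456 against 6731.5 UMIs. With each barcode of at least 1000 UMIs thinned to 1000 UMIs the shares were 24.6% Kif13b-/- and 31.4% WT. Barcodes below that depth were left out, 430 Kif13b-/- and 2458 WT over all classes and unnamed clusters. In endothelial-like cells the thinned shares were 33.7% and 40.4%, in stromal cells 12.4% and 17.6%, and in fibroblast-like cells 10.7% and 17.2%. Dendritic-like cells, taken as the leukocytes with the lowest Cav1 level, gave thinned shares of 0.980% and 1.09%, and unthinned shares of 6.80% and 3.83% at median depths of 13323 and 9096 UMIs. The thinned Cavin1 shares were 48.0% Kif13b-/- and 42.8% WT in smooth muscle-like cells and 25.6% and 24.3% in stromal cells. So at equal depth, among barcodes of at least 1000 UMIs, the share with Cav1 was lower in the Kif13b-/- library in these 4 classes. The Cavin1 shares were not ordered that way in smooth muscle-like or stromal cells.

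Macrophages are the cells named in the series title, and their values are given apart from those of the other leukocytes. In the deeply sampled macrophage-like cluster 9 (441 Kif13b-/- and 771 WT barcodes, median 13850 and 8616 UMIs), Cav2 was at 32.6 Kif13b-/- and 29.2 WT CPM, which is 62.5% and 47.8% of its level over all barcodes of the library. Cav1 was at 28.0 and 33.4 CPM, between 13.8% and 18.5% of its overall level in the Kif13b-/- and between 11.4% and 14.7% in the WT library (95% intervals). The other 4 members were at 1.61% to 3.81% in the Kif13b-/- library and 4.03% to 5.89% in the WT library. The smooth muscle genes Acta2, Tagln and Myh11 were at 3.76% to 4.44% and 5.05% to 5.77% there.

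The 6 members were thus not at 1 common percentage in cluster 9, and Cav2 and Cav1 stood above the other members in both libraries. The endothelial marker Pecam1 was at 18.7% Kif13b-/- and 21.2% WT there, above Cav1, and at 113% and 51.5% in T cell-like cluster 23. All 10 endothelial markers together summed to 41.7 Kif13b-/- and 63.8 WT CPM in cluster 9. Pecam1 alone made up 28.4 and 36.3 CPM of these sums, and Tie1 was at 0 in the Kif13b-/- library. Pecam1 thus does not stand for the other endothelial markers there. Dcn, a fibroblast marker, was at 1.16% and 1.42% in cluster 9. The part of free RNA in the Cav1 and Cav2 values was not tested. In dendritic-like cells Cav2 was at 2.95% Kif13b-/- and 9.90% WT, from 2 and 11 UMIs, and T cell-like cluster 23 held 0 UMIs of Cav2 in either library. The Cav2 ratio in macrophage-like cluster 9 was 0.16 (-0.12 to 0.43) and the Cav1 ratio -0.25 (-0.54 to 0.02), so neither differed between the libraries beyond counting error. Of the barcodes of cluster 9, 10.9% Kif13b-/- and 9.60% WT held Cav1 and 12.7% and 10.8% held Cavin1. Macrophage-like cluster 13 was shallow (median 1829 and 1724 UMIs) and held the members at 55.8% to 95.1% Kif13b-/- and 51.0% to 85.6% WT of the overall level, as it did Acta2 (90.4% and 55.1%).

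**Figure D5:**
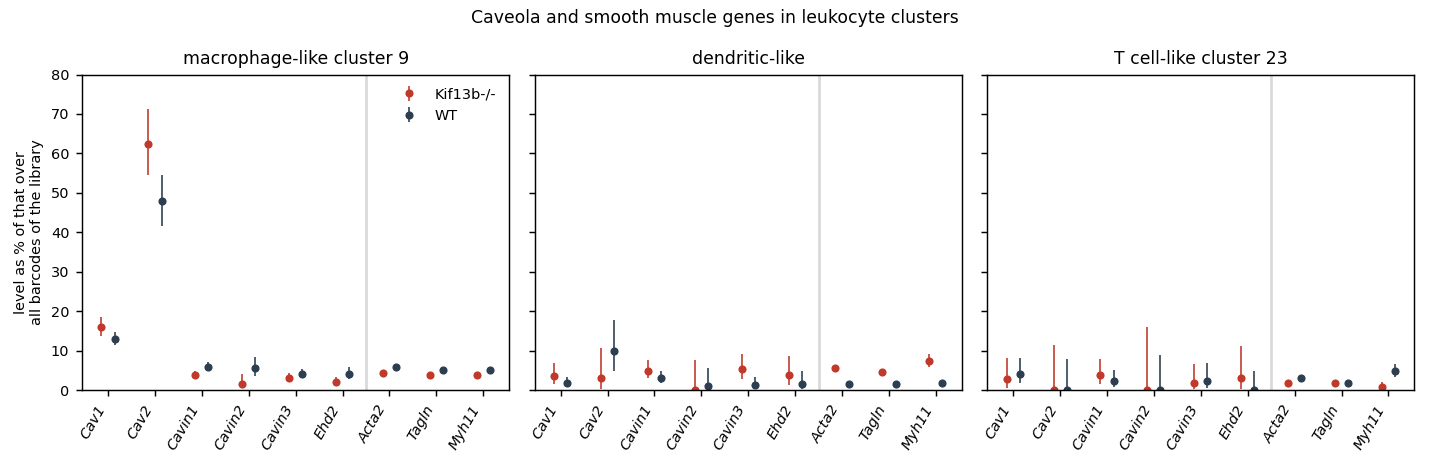
Level of the 6 genes, and of 3 smooth muscle genes to the right of the grey line, in 3 leukocyte populations as a percentage of the level over all barcodes of the same library (linear axis from 0), Kif13b-/- in red to the left of WT in dark blue. Bars are exact Poisson 95% intervals of the leukocyte sums. Of the genes shown, Cav2 is at 62.5% and 47.8% in macrophage-like cluster 9, Cav1 is the next highest, and the others are at 5.89% or less.

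Among 12 other caveola proteins, which include the EHD and PACSIN families, dynamin-2 and the diaphragm protein PLVAP, 10 had enough UMIs to be compared in smooth muscle-like cells. None of them passed the ratio of 1.5 in either direction there. In endothelial-like cells 2 of 10 were higher and 1 was lower. Ehd3, a relative of Ehd2 in endosome recycling, was at 70.5 Kif13b-/- and 39.1 WT CPM (log2 ratio 0.85, 0.59 to 1.11), and Cav3, the muscle caveolin, was near the floor at 11 and 13 UMIs. Ror1, a receptor that binds caveolin-1 and cavin-1, was at 112 and 175 CPM (-0.64, -0.81 to -0.47). In fibroblast-like cells 1 of 10 was higher (Cav3, from 28 Kif13b-/- and 13 WT UMIs), and in stromal cells 1 of 12 was lower (Pacsin1, from 4 and 17 UMIs). In adipocyte-like cells 1 of 7 was higher (Dnm2, at 102 Kif13b-/- and 60.6 WT CPM) and 3 were lower (Pacsin2, Ehd4 and Plvap, each with 16 or fewer Kif13b-/- UMIs). Of all genes, 4.55% were lower and 6.15% higher by the ratio in smooth muscle-like cells, and 8.72% and 6.25% in endothelial-like cells. The shares were 7.81% and 7.12% in fibroblast-like, 5.12% and 5.02% in stromal and 18.3% and 10.3% in adipocyte-like cells.

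Of 9 genes listed as other partners of KIF13B, whose binding to it was not examined here, none of 7 passed the ratio in smooth muscle-like cells. In endothelial-like cells 1 of 7 was higher: Kdr, the VEGF receptor of endothelium, stood at 203 Kif13b-/- and 128 WT CPM (0.66, 0.52 to 0.81). Kdr is also a capillary marker, and all 6 capillary markers together summed to 840 Kif13b-/- and 535 WT CPM over the class but to 2407 and 2634 CPM within capillary cluster 20. In fibroblast-like cells 1 of 6 was lower: Mertk, the receptor for dying cells, at 22.0 and 40.3 CPM (-0.87, -1.24 to -0.51). In stromal cells 1 of 8 was higher (Nphp4, from 26 and 20 UMIs). In adipocyte-like cells 3 of 6 were lower: Dlg1 (37 Kif13b-/- and 205 WT UMIs), Mark2 (18 and 102) and Mertk (7 and 58). Among all genes, 4.55% were lower and 6.15% higher in smooth muscle-like cells, and 6.25% were higher in endothelial-like cells. In the other classes 7.81% were lower in fibroblast-like, 5.02% higher in stromal and 18.3% lower in adipocyte-like cells.

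Of 16 proteins known to sit in or signal from caveolae, 14 were compared in smooth muscle-like cells and 2 were lower: the fatty acid transporter Cd36 (15 Kif13b-/- and 75 WT UMIs) and the endothelin receptor Ednrb, at 12.3 Kif13b-/- and 24.4 WT CPM (-0.98, -1.33 to -0.65). In endothelial-like cells 2 of 16 were lower: the potassium channel gene Kcnma1, at 94.1 and 158 CPM (-0.75, -0.94 to -0.57), and the endothelin receptor Ednra, at 15.05 and 23.5 CPM. Nos3, the endothelial nitric oxide synthase that caveolin-1 binds, is named after its values were seen and was at 87.9 Kif13b-/- and 84.4 WT CPM there (0.06, -0.15 to 0.26) and did not pass the ratio. In fibroblast-like cells Cd36 (40 and 104 UMIs) and Ednrb (5 and 24 UMIs) were lower of 16, and in stromal cells Cd36 (10 and 25 UMIs) of 15. In adipocyte-like cells 2 of 14 were higher (Tgfbr2, at 112 Kif13b-/- and 74.7 WT CPM, and 1 other of few UMIs) and 3 were lower (Ednra, Trpc1 and Ednrb, the last with 0 Kif13b-/- and 50 WT UMIs). Of 14 genes of the clathrin and flotillin routes, the other ways into the cell, none passed the ratio in smooth muscle-like, endothelial-like or fibroblast-like cells. In stromal cells Dnm1 was higher, at 34.2 Kif13b-/- and 22.3 WT CPM (0.62, 0.41 to 0.83), and in adipocyte-like cells Eps15 was higher (33 and 77 UMIs) and Dnm1 lower (3 and 19 UMIs). For both lists the share of all genes lower and then higher was 4.55% and 6.15% in smooth muscle-like and 8.72% and 6.25% in endothelial-like cells. It was 7.81% and 7.12% in fibroblast-like, 5.12% and 5.02% in stromal and 18.3% and 10.3% in adipocyte-like cells.

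Of the 5 genes beside Cav1 and Cav2, 5 of 5 compared were below equal in fibroblast-like cells, 2 of them (Tes and Tfec) lower by the ratio of 1.5, with a median log2 ratio of -0.23. In endothelial-like cells 4 of 5 were below equal and 1 was lower by that ratio, in adipocyte-like cells 2 of 4 and 1. In smooth muscle-like cells 2 of 4 and in stromal cells 2 of 5 were below equal, 0 were lower by the ratio and 1 was higher in each. In chondrocyte-like cells, where Cav1 itself was near equal, 5 of 5 were below equal and 3 were lower by the ratio (median -0.67). Capza2, a subunit of the actin capping protein downstream of Cav1, was at 200.4 Kif13b-/- and 240 WT CPM in smooth muscle-like cells (-0.26, -0.35 to -0.17) and at 154 and 196 CPM in stromal cells (-0.35, -0.43 to -0.26). Tes, upstream of Cav2, was at 171 and 154 CPM in smooth muscle-like cells (0.15, 0.05 to 0.25) and at 20.4 and 37.1 CPM in fibroblast-like cells (-0.86, -1.25 to -0.48). Met, next to Cav1, had 58 Kif13b-/- and 122 WT UMIs in endothelial-like cells and a log2 ratio of -0.08 (-0.56 to 0.38). Mdfic had a log2 ratio of -0.10 (-0.41 to 0.21) in smooth muscle-like and 0.07 (-0.11 to 0.25) in stromal cells. Tfec had 57 or fewer UMIs in each library and class.

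Over 24 profiles, the 2 libraries of each of 12 classes with at least 50 barcodes in both (adipocyte-like cells had fewer), the log2 levels of the members were related to unlike degrees. These correlations are descriptive, and the profiles share libraries, depth and free RNA. Cavin1 and Ehd2 were the closest pair (Pearson r = 0.983), and Cavin2 and Cavin3 were the least alike (r = 0.636). The neighbours Cav1 and Cav2 had r = 0.915, below Cav1 with Cavin1 (0.928) and with Ehd2 (0.920), which lie on other chromosomes. Among 7074 genes with at least 50 CPM in some profile, Cav1 was most like Epas1 (r = 0.946), which encodes the hypoxia factor HIF-2alpha, and Crim1 (0.943). Cavin2 was most like the endothelial genes Esam (0.960) and Ldb2 (0.955). Cavin1 was most like Crip2 (0.963) and Fermt2 (0.962), Ehd2 most like Col4a2 (0.972) and Yap1 (0.970), Cavin3 most like Nfib (0.979) and Nedd4 (0.972), and Cav2 most like Id1 (0.904), a target of BMP signalling, and Rapgef5 (0.859).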

How the data were processed

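The authors deposited 1 matrix of whole-number UMI counts per library, with Cell Ranger 8.0.1 and mm10 named in the file headers and the submitters' processing notes. Doublet removal before deposit, and the annotation and strand used for counting, are not given in the sources used here.

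A minimum of 500 UMIs and 300 genes and a ceiling of 20% mitochondrial UMIs left 7315 Kif13b-/- and 19832 WT barcodes. Scrublet's automatic threshold marked 0 and 4 barcodes and was set aside. The highest scores were removed at 0.8% per 1000 barcodes, 428 and 3146. Clusters (Scanpy 1.11.5, leidenalg 0.10.2, resolution 1) were built from 1998 variable genes without the members and other caveola genes. They were named from marker lists, with a rule set after the clusters were seen, and 23 of 35 were named. Unnamed clusters held 35.4% of the Kif13b-/- and 26.2% of the WT barcodes, with median mitochondrial shares of 13.7% and 6.78%. Unnamed cluster 8, led by mitochondrial genes such as mt-Co3, held 1290 Kif13b-/- barcodes (18.7% of the library) and 5 WT barcodes. The levels over all barcodes include the unnamed clusters.

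UMIs were summed per class and library, divided by all UMIs of that class and given as CPM with exact Poisson 95% intervals. Log2 ratios carry a prior count of 0.5 and an exact conditional interval, and calls need 20 UMIs over both libraries. The calculation was tested on simulated data. The members and lists were chosen with earlier results of these data known. Named genes are the members, up to 4 genes per other list and class past the ratio of 1.5 (most UMIs first), the genes beside Cav1 and Cav2, and the genes most like each member by Pearson correlation of log2(CPM + 10). Alternatives changed the filters, scaling, clustering, naming, thinning and subtracted background.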

Additional observations from a re-analysis of the deposited data

How the results depend on the processing

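No paired analysis was possible because each genotype has 1 library. Over the alternatives, 389 of 488 member ratios stayed within the counting interval of the reported value. On the other side of equal from the reported value lay 67 of the 488, 3 of them of Cav1. The 3 were stromal (0.23), fibroblast-like (0.66) and endothelial-like cells (0.04) with the level in B cell-like and neutrophil-like cells subtracted, and the cause was not tested. Cav1 was below 0 in 17 of 17 alternatives in smooth muscle-like and 15 of 15 in adipocyte-like cells, 18 of 19 in endothelial-like, 16 of 17 in fibroblast-like and 13 of 14 in stromal cells. Of 164 counts of members past the ratio of 1.5, 139 stayed within 1.5 times. The percentages that follow are the share of all genes past the ratio in the same direction and setting. With that subtraction the higher members numbered 2 in stromal (28.3%), 3 in adipocyte-like (33.2%), 3 in fibroblast-like (29.7%) and 1 in smooth muscle-like cells (26.5%), and the lower members 0 in stromal (24.2%), adipocyte-like (27.3%) and fibroblast-like cells (23.9%). In stromal cells the lower members were also 0 with at most 10% mitochondrial UMIs (5.2%), a total without mitochondrial UMIs (4.85%), each cell weighing the same (7.96%), Leiden resolution 2 (5.31%) or thinning to 1000 UMIs. In fibroblast-like cells they were 0 in barcodes of at least 5000 UMIs (8.84%), at Leiden resolution 2 (9.02%), with the members among the variable genes (9.64%) and with classes by marker score (6.36%), and 2 in cluster 2 (9.26%) and 2 in cluster 15 (14.6%). In adipocyte-like cells they were 2 in barcodes of at least 5000 UMIs (18%) and with each cell weighing the same (26.1%), and 0 with classes by marker score (19.5%), while 1 was higher after thinning. Cluster 12 alone gave 1 (14%) and cluster 18 alone 2 lower members (19.6%) in endothelial-like cells, and cluster 10 alone 1 higher in smooth muscle-like cells (8%). Thinning was run on the members alone, so no share of all genes is given for it. Single clusters, barcodes under 2000 UMIs and the dendritic-like subtraction were chosen after seeing the data. Leiden resolution 0.5 gave no value for the stromal class, which then had too few cells, and a subtraction that left no level gave none.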
